A study of Mus musculus with 20 samples.

Results

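The genes described here are 10 lineage regulators and products, chosen by symbol for their place in cartilage, bone, tendon and fat formation: Sox5, Sox6, Sox9, Acan, Runx1, Runx2, Scx, Mkx, Cebpa and Cebpd. All 10 were found among the 24848 genes of the count tables, and 9 had enough reads to be tested, Acan being the exception. These 10 genes, and the gene lists set beside them below, were chosen with earlier results of these data known. RNA was sequenced from liver mesenchymal cells of C57BL/6 mice, with no other genotype or treatment given for any group. Portal mesenchymal stem cells (PMSC) and hepatic stellate cells (HSC) were profiled as taken from the liver, here called fresh. Myofibroblasts, the contractile and matrix-producing cells of scar tissue, were profiled after the portal cells had been cultured for 3 days (PMSC-MFs-3d, here PMSC-MF-3d) or 7 days (PMSC-MFs-7d, here PMSC-MF-7d). Myofibroblasts grown from stellate cells are titled HSC-MFs-7d (here HSC-MF-7d), whereas the series text gives 3 days for them, so their time in culture is uncertain. Each group held 4 libraries, 20 in all. The sources do not say how the cells were purified, how old the mice were, or whether the 4 libraries came from separate animals, so a p-value measures the spread between libraries, which may be technical.

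Mesenchymal stem cells are defined in part by their capacity to form cartilage, bone and fat, and the title of the study ascribes such stem cell features to the portal fibroblasts. SOX9 is the master regulator of cartilage, and with SOX5 and SOX6 it switches on matrix genes such as Col2a1 and Acan, the gene of the proteoglycan aggrecan. RUNX2 is required for bone-forming osteoblasts, while RUNX1 is best known from blood stem cells and also acts in skeletal progenitors. Scleraxis (Scx) and Mohawk (Mkx) are transcription factors of tendon cells. CEBPD acts early and CEBPA late in the making of fat cells. Several of these genes are also used by other liver cells: Sox9 by bile duct cells, Runx1 by blood cells and Cebpa by hepatocytes.

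The starts of 3 members are shown because of how their transcripts moved between groups, as described further on. Runx1 has a distal and a proximal promoter, and its mean transcript length was lowest in fresh HSC, a difference that did not pass adjustment. Cebpa and Sox5 lost most of their transcripts in both cultures. The Sox5 start shown is the only 1 listed for this gene. It lies inside the gene's span (chr6:143828425-144782287), not at its outer end. Whether transcripts began there is not known from these data. The letters run 5′ to 3′ up to the base before the annotated start, from the RefSeq promoter table of GRCm38.p6, the build behind mm10. Capitals mark matches to the searched motifs on either strand.
Runx1 distal, chr16:92826150-92826324, minus strand: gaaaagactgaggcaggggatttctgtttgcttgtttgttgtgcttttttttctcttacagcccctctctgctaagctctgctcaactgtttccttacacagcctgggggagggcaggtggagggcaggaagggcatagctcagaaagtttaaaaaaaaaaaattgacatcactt
Runx1 proximal, chr16:92697330-92697579, minus strand: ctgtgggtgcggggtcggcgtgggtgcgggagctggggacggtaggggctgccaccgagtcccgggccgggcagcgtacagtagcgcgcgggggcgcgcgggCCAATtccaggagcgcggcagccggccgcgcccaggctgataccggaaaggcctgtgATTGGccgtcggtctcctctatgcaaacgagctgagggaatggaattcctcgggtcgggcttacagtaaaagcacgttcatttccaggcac
Cebpa, chr7:35119043-35119292, plus strand: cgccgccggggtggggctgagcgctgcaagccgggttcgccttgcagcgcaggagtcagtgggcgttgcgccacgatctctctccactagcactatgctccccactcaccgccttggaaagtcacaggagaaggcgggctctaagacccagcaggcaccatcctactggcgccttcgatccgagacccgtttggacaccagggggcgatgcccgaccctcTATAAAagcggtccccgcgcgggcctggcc
Sox5, chr6:143947107-143947356, minus strand: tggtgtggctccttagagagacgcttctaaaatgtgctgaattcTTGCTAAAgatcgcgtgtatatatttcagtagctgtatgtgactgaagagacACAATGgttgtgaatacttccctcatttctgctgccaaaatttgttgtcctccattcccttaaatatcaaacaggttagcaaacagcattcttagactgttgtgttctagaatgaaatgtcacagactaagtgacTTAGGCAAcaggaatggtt
The Runx1 proximal window holds 2 CCAAT boxes (CCAAT, on either strand), at 148 and 91 bases before the start. Such a box is in 33.8% of the 32851 promoter windows of 250 bases in the table. In the Runx1 distal promoter the 75 bases nearest the start are not printed, since they overlap an annotated exon, and 2 CCAAT boxes lie there, at 65 and 54 bases before the start. The Cebpa window holds a TATA box (TATAAA) 30 bases before the start, found in 12.4% of windows. The Sox5 window holds 2 matches to a C/EBP site (TTGCNNAA), which 9.56% of windows hold, and 1 match to a SOX site (ACAATG), which 10.7% hold. None of these overlap. The other motifs searched had no match in these 4 windows: an AP-1 site (TGANTCA, in 6.75% of all windows), a RUNX site (TGTGGT, 14%), a cyclic AMP response element (TGACGTCA, 1.55%), a scleraxis E-box (CAGATG, 14.4%) and a STAT site (TTCNNGGAA, 4.06%). A match in these letters is a description and was not tied to any measurement.

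Summed expected counts per library ran from 11810536 to 21438751 in PMSC, from 22738014 to 26675583 in the portal cultures and from 13572277 to 18650357 in the stellate groups. Levels are given as CPM, counts relative to scaled library sizes, and between genes as TPM, which also allows for transcript length. Markers of the fresh cell types were where the labels put them. The 10 portal fibroblast markers summed to 21650 to 24691 CPM in PMSC against 159 to 224 in HSC. The 10 stellate markers summed to 18814 to 29205 CPM in HSC against 1753 to 2233 in PMSC. Myofibroblast markers, also 10, summed to 18718 to 20991 CPM in PMSC-MF-3d, 28965 to 34184 in PMSC-MF-7d and 11805 to 13852 in HSC-MF-7d. They were at 1707 to 2481 CPM in HSC but already at 17591 to 24248 in PMSC. These markers therefore did not set PMSC-MF-3d apart from fresh PMSC. Fresh HSC libraries also held transcripts of other liver cells. Their 15 hepatocyte markers summed to 18819, 22660, 4605 and 6282 CPM in libraries 1 to 4, their 14 macrophage markers to 11798, 5886, 5145 and 3181 CPM, and their 14 endothelial markers to 6598 to 7956 CPM. In PMSC the same 3 sums were 1270 to 2210, 27.4 to 37.7 and 79.9 to 309 CPM, and in the cultures they stayed at or under 118, 61.9 and 36.6 CPM. The 14 bile duct markers were low in every group, 43.9 CPM at most. In RNA from many cells, fewer cells of a type and less RNA per cell cannot be told apart.

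Of the 9 tested members, 7 were higher in fresh PMSC than in fresh HSC and none was lower, where 73.7% of all 14751 tested genes passed the same test (33.6% higher, 40.1% lower). A call here is an adjusted p under 0.05 in edgeR's quasi-likelihood test, with Benjamini-Hochberg adjustment over all tested genes. The members' median log2 difference was 1.84, against -0.10 over all genes tested. After 7 days of portal culture, 2 members had risen and 6 had fallen from the fresh level, where 77% of genes were called (38.1% higher, 39% lower). After stellate culture, 3 had risen and 5 had fallen, where 74.5% were called (36% higher, 38.5% lower). Between the cultures, PMSC-MF-7d was higher than HSC-MF-7d for 6 members and lower for 2, where 47.1% were called (23.9% higher, 23.1% lower). From day 3 to day 7 of portal culture, 2 members rose and 2 fell, where 36% were called (18.6% higher, 17.4% lower). By day 3 the portal cells had 1 member higher and 6 lower than fresh, where 78.3% were called (37.2% higher, 41.1% lower). Against HSC-MF-7d these day 3 cells had 5 members higher and 1 lower, where 54.6% were called (27.2% higher, 27.4% lower). The culture change itself differed between the cell types for 6 members, 2 with a positive and 4 with a negative difference, where 60.6% of genes differed (31.4% higher, 29.2% lower). The members' shares, 77.8% between the fresh cells and 77.8% in the first 3 days of portal culture, were near the background, as was their 66.7% for the difference of culture changes. With HSC libraries 3 and 4 alone, the counts of higher and lower members were 7 and 0 between fresh cells, 3 and 5 in stellate culture, and 2 and 5 for the difference. That choice of libraries was made after seeing the data. With only PMSC and HSC in the fit, the counts between fresh cells were 5 and 0. Cebpa then missed the call (log2 0.67, adjusted p = 0.0505), and Mkx, with few counts in fresh cells, was left out by the filter.

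**Figure D1:**
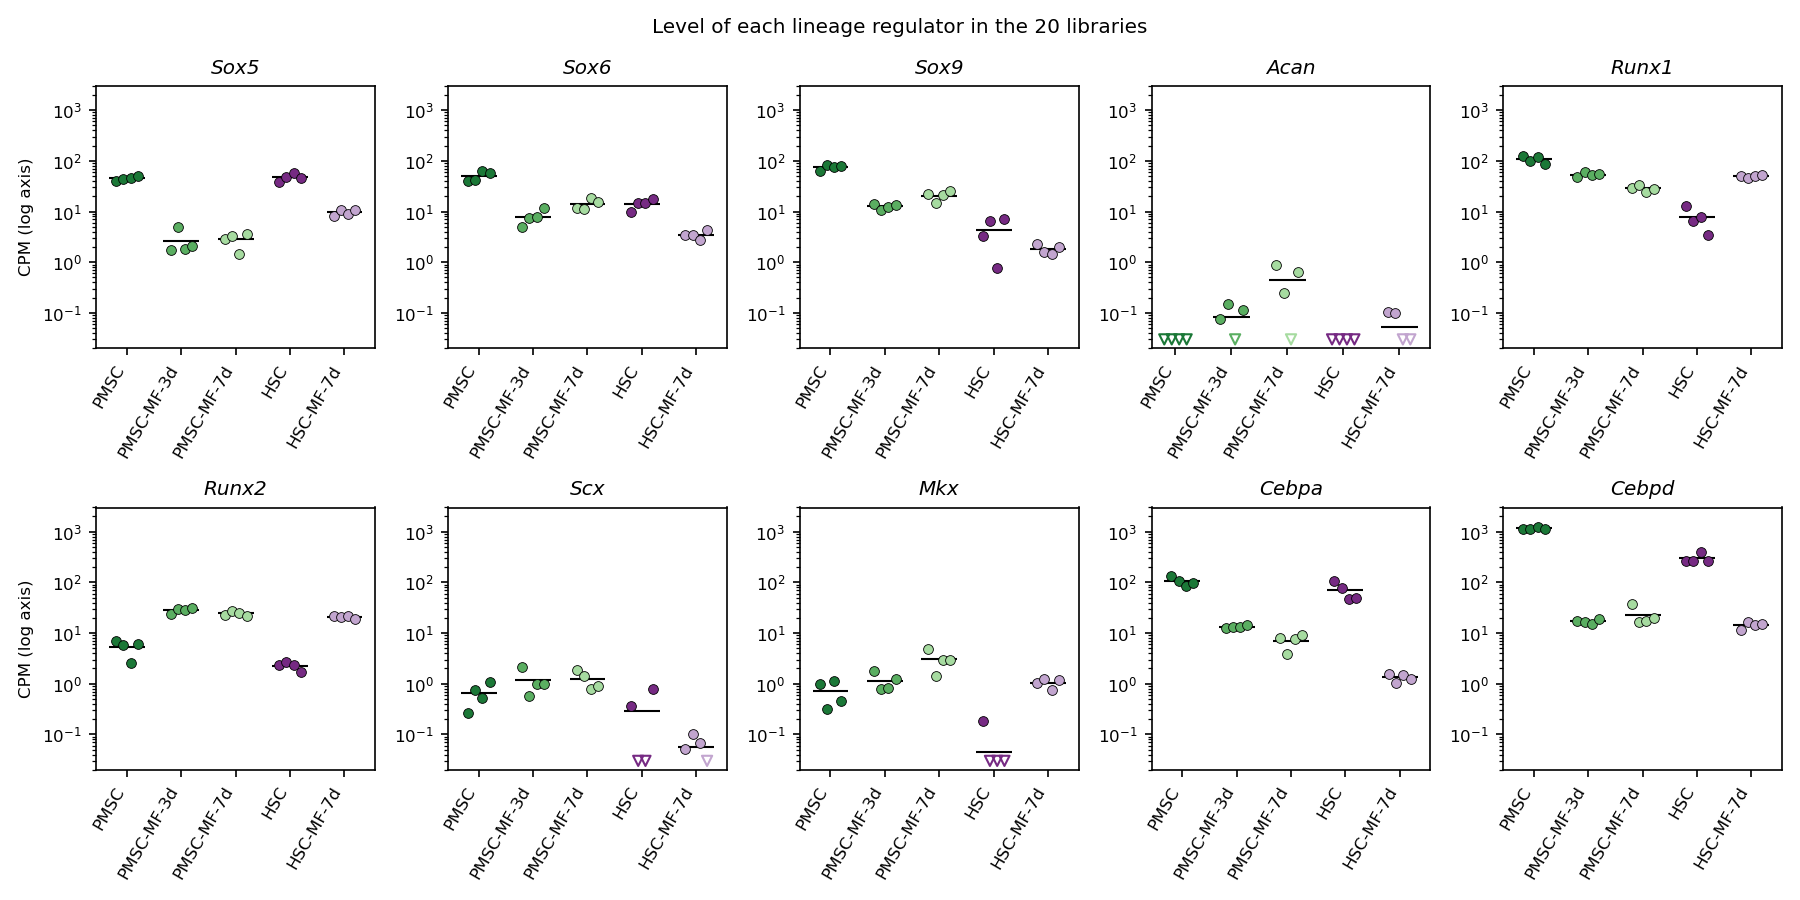
Level of each of the 10 genes in every library (points, CPM on a log axis; bar, mean of 4 libraries; open triangle at the bottom, a library with no count). Sox9, Sox6 and Cebpd are highest in PMSC, Runx2 is high in the 3 cultures, and Acan, Scx and Mkx stay under 5 CPM everywhere.

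Sox9 (chr11:112782210-112787757) was the cartilage regulator that most separated the fresh cell types. It stood at 64.2, 81.6, 74.9 and 79.7 CPM in the 4 PMSC libraries and at 3.32, 6.38, 0.77 and 7.12 CPM in HSC. The ranges lay far apart, and the log2 difference was 4.11 ± 0.36 (SE, adjusted p = 4.75e-09). Portal culture brought Sox9 to 10.7 to 13.8 CPM on day 3 and 14.5 to 25.0 CPM on day 7, a log2 fold change from fresh of -1.86 ± 0.32 at day 7 (adjusted p = 2.46e-05). HSC-MF-7d held 1.43 to 2.31 CPM, so that Sox9 was still higher in PMSC-MF-7d by 3.49 ± 0.38 on the log2 scale (adjusted p = 3.36e-07). The groups ordered as PMSC, PMSC-MF-7d, PMSC-MF-3d, HSC and HSC-MF-7d, and of these neighbours only the 2 portal cultures did not differ past the threshold (adjusted p = 0.0844). Their libraries did not overlap. Their difference passed with only the compared groups fitted (0.70, adjusted p = 0.0027) and in limma on log2(TPM + 1) (0.71, adjusted p = 0.0445). The lower level in HSC-MF-7d than in HSC (log2 -1.25 ± 0.40, adjusted p = 0.00872) overlapped between libraries and did not pass without HSC library 2 (-0.98, adjusted p = 0.052) or 4 (-0.90, adjusted p = 0.0614). The bile duct markers, among them the keratin gene Krt19 and the adhesion gene Epcam, were as low in PMSC as in HSC: Krt19 had 0.51 to 1.28 CPM and Epcam 0 to 2.32 CPM in PMSC, against 0.66 to 2.05 and 0.83 to 5.23 CPM in HSC.

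Sox6 (chr7:115470872-116040776) followed the same order between fresh cells at a smaller distance. PMSC held 40.2, 42.0, 64.2 and 58.1 CPM and HSC 9.78, 14.5, 14.9 and 17.8 CPM, a log2 difference of 1.84 ± 0.24 (adjusted p = 1.33e-06). Sox6 fell in both cultures: to 4.95 to 11.7 CPM at day 3 and 11.2 to 18.7 CPM at day 7 of portal culture, and to 2.73 to 4.41 CPM in HSC-MF-7d. The change from fresh was -1.84 ± 0.24 in PMSC-MF-7d and -2.03 ± 0.26 in HSC-MF-7d, and the difference between these changes, 0.19 ± 0.35, did not pass (adjusted p = 0.67). PMSC-MF-7d and HSC stood level in the order of groups (means of 14.3 CPM in both, adjusted p = 0.989), while Sox6 rose between the portal cultures from day 3 to day 7 (0.84 ± 0.24, adjusted p = 0.0101), with overlap between their libraries.

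Sox5 (chr6:143828425-144782287), the partner of Sox6, did not follow it between the fresh cells. Its levels were 40.2, 44.1, 46.9 and 49.6 CPM in PMSC and 38.5, 48.3, 56.9 and 46.5 CPM in HSC. The libraries overlapped, and the log2 difference of -0.07 ± 0.25 did not pass (adjusted p = 0.801). Sox5 then fell more steeply in portal culture, to 1.75, 4.95, 1.83 and 2.11 CPM on day 3 and 2.82, 3.34, 1.43 and 3.64 CPM on day 7. The log2 fold change was -4.01 ± 0.29 in PMSC-MF-7d (adjusted p = 1.57e-10) and -2.30 ± 0.26 in HSC-MF-7d, where 8.10 to 10.8 CPM remained (adjusted p = 1.68e-07). These changes differed by -1.71 ± 0.37 (adjusted p = 0.000559), and Sox5 was the cartilage regulator that ended lower in PMSC-MF-7d than in HSC-MF-7d (-1.78 ± 0.28, adjusted p = 3.09e-05). The ratio of Sox9 to the sum of Sox5 and Sox6, on the TPM scale, was 1.27 to 1.81 in PMSC and 0.019 to 0.205 in HSC, and it stayed apart in culture, at 2.04 to 3.03 in PMSC-MF-7d and 0.197 to 0.375 in HSC-MF-7d.

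Acan (chr7:79053226-79115099) was at 0 counts in all 8 fresh libraries, which allows up to 3 counts over a group, or 0.052 CPM in PMSC and 0.0449 CPM in HSC. Cultured portal cells held 2, 4, 0 and 3 counts on day 3 and 24, 6, 0 and 18 counts on day 7. Set against the PMSC floor, the summed PMSC-MF-7d counts stood 8.57-fold higher, at a mean of only 0.44 CPM and with 1 library of 4 at 0. That ratio takes the PMSC-MF-7d counts as exact. HSC-MF-7d held 2, 2, 0 and 0 counts. Such intervals and floors cover counting error only.

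The collagens of cartilage gave a mixed picture in the same libraries. Of 20 cartilage matrix genes 11 were tested. Over all tested genes, 33.6% were higher and 40.1% lower in PMSC than in HSC. Of the 11, 9 were higher and none lower, with a median log2 difference of 3.74 (3.53 where groups without counts are set at their floor). They included Matn4, a matrilin (10.2 ± 2.11 against 0.32 ± 0.43 CPM, mean ± SD), Col11a2, a chain of collagen XI, and Cnmd, the anti-angiogenic chondromodulin (20.4 ± 6.46 against 3.63 ± 3.20 CPM). From PMSC to PMSC-MF-7d, 4 rose and 6 fell, at a median of -2.91 (38.1% and 39% of all tested genes). Cnmd fell to 0.018 CPM, whereas Col2a1, the main collagen chain of cartilage, went from 0.52 ± 0.33 CPM in PMSC and 0.17 ± 0.24 on day 3 to 36.3 ± 21.9 CPM on day 7 (7d against fresh, log2 6.04 ± 0.81, adjusted p = 3.24e-06). Col2a1 had no count in HSC and 0.24 ± 0.23 CPM in HSC-MF-7d, against which PMSC-MF-7d was higher by 7.17 ± 0.87 (adjusted p = 3.83e-06). Col11a1, which encodes another chain of collagen XI, did not share this restriction: it rose in both cultures, to 88.2 ± 18.3 CPM in PMSC-MF-7d and 126 ± 20.3 in HSC-MF-7d, from 1.48 ± 1.08 and 0.03 ± 0.06 CPM. In stellate culture 4 of the 11 genes rose and 2 fell (36% and 38.5% of all tested genes). With only the compared groups fitted, 5 and not 9 were higher in PMSC than in HSC, 1 rose and 1 fell in stellate culture, and 2 rose and 6 fell from PMSC to PMSC-MF-7d.

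Other SOX genes moved in several directions. Of 10 listed, 8 were tested. PMSC exceeded HSC for 2 and lay below it for 4 (33.6% and 40.1% of all tested genes). Sox8, a close relative of Sox9, was higher in PMSC (14.5 ± 4.50 against 0.83 ± 0.20 CPM; log2 4.13 ± 0.35, adjusted p = 2.14e-09). Sox18 and Sox17, both endothelial regulators, were higher in HSC, at 57.4 ± 14.8 and 21.3 ± 3.46 CPM, where endothelial markers also summed to 6598 to 7956 CPM; their part in this was not tested. In portal culture to day 7, 3 rose and 5 fell (3 fell with only the compared groups fitted), where 38.1% of all tested genes rose and 39% fell. Sox11 rose between day 3 and day 7 (log2 3.90 ± 0.46, adjusted p = 2.47e-06), to 14.1 ± 3.14 CPM from 0.94 ± 0.48 CPM. Sox12 rose from 3.77 ± 1.52 CPM in PMSC to 15.6 ± 3.93 CPM in PMSC-MF-7d (2.03 ± 0.25, adjusted p = 4.35e-07). In stellate culture 2 rose and 5 fell (36% and 38.5% of all tested genes). Sox4 rose there to 140 ± 5.97 CPM (log2 2.41 ± 0.20, adjusted p = 1.42e-09), above its 42.5 ± 6.11 CPM in PMSC-MF-7d.

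Runx1 (chr16:92601466-92826074) went in opposite directions in the cultures. It stood at 127, 99.5, 119 and 87.6 CPM in PMSC and at 12.8, 6.38, 7.92 and 3.40 CPM in HSC, and the log2 difference was 3.82 ± 0.25 (adjusted p = 5.14e-11). No PMSC library came near an HSC library. In portal culture it fell to 47.2, 59.9, 53.2 and 54.7 CPM on day 3 and 29.0, 33.8, 24.5 and 27.3 CPM on day 7, each step passing the test (adjusted p = 0.000288 and 0.00279). In HSC-MF-7d it stood at 50.9, 45.1, 50.1 and 51.9 CPM, above every fresh HSC library. The change was -1.92 ± 0.22 in PMSC-MF-7d (adjusted p = 1.72e-07) and 2.69 ± 0.24 in HSC-MF-7d (adjusted p = 4.27e-09), and these changes differed by -4.61 ± 0.33 (adjusted p = 5.51e-10). The order of groups ran PMSC, PMSC-MF-3d, HSC-MF-7d, PMSC-MF-7d and HSC, in which only PMSC-MF-3d and HSC-MF-7d did not differ past the threshold (0.12 ± 0.21, adjusted p = 0.667). Runx1 was lower in PMSC-MF-7d than in HSC-MF-7d (-0.79 ± 0.22, adjusted p = 0.00547).

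The estimated mean length of Runx1 transcripts was also shortest in the fresh HSC libraries. The count tables carry, for each gene and library, a transcript length averaged by the estimated abundance of its transcripts, of which Runx1 has 4 in these tables. This length was 5685, 6589, 6525 and 5751 bases in the 4 HSC libraries and lay between 7045 and 7095 bases in the other 16. The mean was 6138 ± 486 bases (SD) in HSC, 7082 ± 16.0 in PMSC and 7073 ± 18.6 in HSC-MF-7d. Both differences from HSC gave p = 0.0286 in a two-sided exact permutation test, the smallest that 4 against 4 libraries allow. Neither passed adjustment over the 35 length tests made on 5 members (adjusted p = 0.501). With this smallest p, no test could pass unless many of the 35 reached it, so the adjusted result cannot decide for or against a difference. The tables hold no value for single transcripts, so which of them were used is not known from these data. The HSC libraries hold only 52 to 212 Runx1 counts, against 668 to 1912 in the others. The macrophage sums of 11798, 5886, 5145 and 3181 CPM, and the pan-leukocyte gene Ptprc at 237, 106, 93.6 and 60.9 CPM, stand beside these HSC values, with Ptprc at 0.69 CPM or less in every other group. Their part in the HSC transcripts was not tested. With HSC libraries 3 and 4 alone, a choice made after seeing the data, the rise of Runx1 in stellate culture was 3.13 (adjusted p = 2.64e-09).

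**Figure D2:**
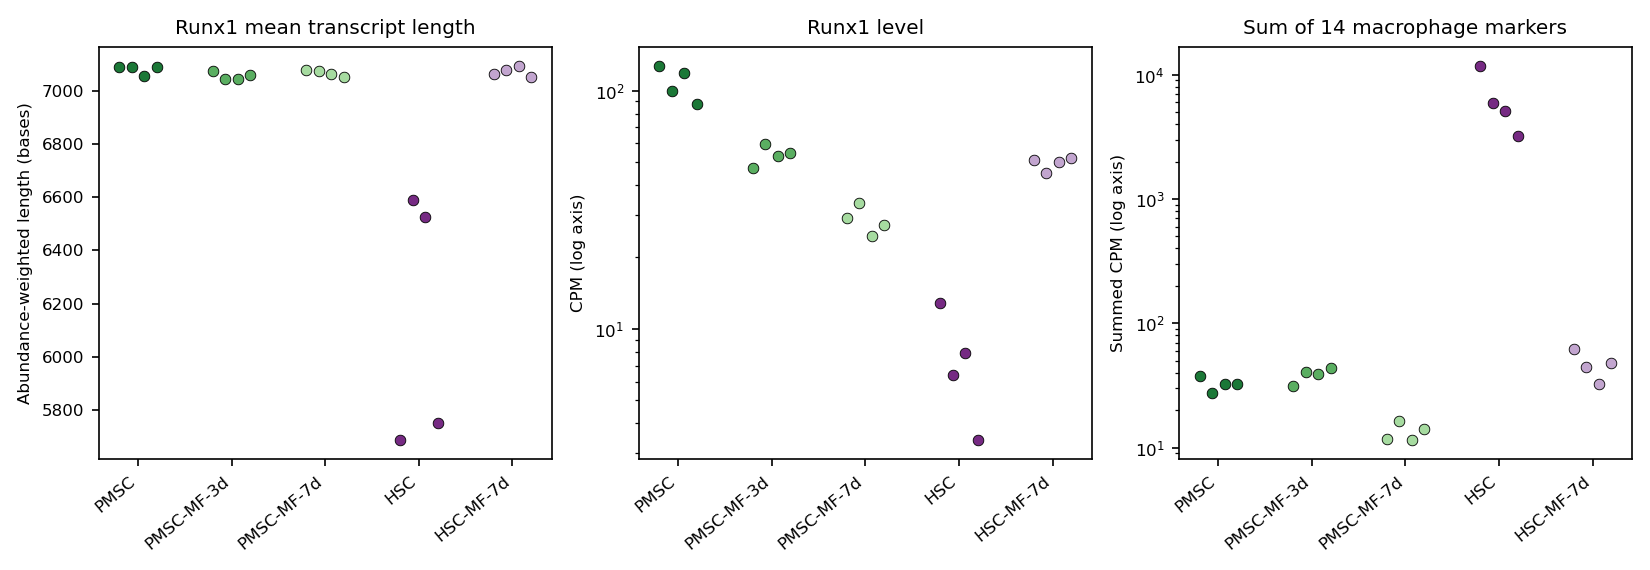
Runx1 in the 20 libraries: abundance-weighted transcript length in bases (left), level in CPM on a log axis (middle), and summed CPM of 14 macrophage markers on a log axis (right); each point is 1 library. The 4 HSC libraries have the shortest lengths (5685 to 6589 bases), the lowest Runx1 levels and the highest macrophage sums (3181 to 11798 CPM).

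Runx2 (chr17:44495987-44814797), the bone regulator, rose in both cultures. It stood at 7.12, 5.75, 2.51 and 5.98 CPM in PMSC and 2.29, 2.74, 2.31 and 1.70 CPM in HSC, higher in PMSC by 1.26 ± 0.22 on the log2 scale (adjusted p = 3.15e-05), although PMSC library 3 lay within the HSC range. Portal culture took it to 24.2, 30.0, 28.4 and 30.9 CPM by day 3 and 23.1, 26.9, 25.3 and 22.1 CPM by day 7, and HSC-MF-7d held 21.5, 20.8, 21.7 and 18.8 CPM. All 12 cultured libraries lay above all 8 fresh ones. The rise was 2.16 ± 0.20 in PMSC-MF-7d (adjusted p = 4.42e-09) and 3.19 ± 0.21 in HSC-MF-7d (adjusted p = 5.04e-11), a difference of -1.02 ± 0.28 (adjusted p = 0.00386) that limma on log2(TPM + 1) did not call (-0.23, adjusted p = 0.341). The 3 cultures followed each other in the order without a difference past the threshold between neighbours (adjusted p = 0.364 and 0.299), although the second of these passed with only the compared groups fitted (0.23, adjusted p = 0.045). The ends of that order differed: Runx2 was higher in PMSC-MF-3d than in HSC-MF-7d (0.46 ± 0.18, adjusted p = 0.0373) with no overlap between libraries, a call lost in limma and without any of the 8 libraries but PMSC-MF-3d library 1 (0.42 to 0.49). On the TPM scale, the ratio of Runx2 to Runx1 was 0.026 to 0.085 in PMSC, 0.629 to 0.702 on day 3 and 0.995 to 1.34 on day 7, while HSC had 0.185 to 0.486 and the stellate culture 0.447 to 0.568.

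Genes of bone formation did not rise as a group with Runx2. Of 22 listed, 12 were tested. By day 3 of portal culture 5 rose and 6 fell, at a median log2 change of -0.07 (37.2% and 41.1% of all tested genes). In PMSC-MF-7d against PMSC 3 rose and 6 fell, at a median of -0.31 (38.1% and 39% of all tested genes). In stellate culture 2 rose and 4 fell, at a median of 0.02 (36% and 38.5% of all tested genes). Alpl, the tissue-nonspecific alkaline phosphatase used as an early bone marker, fell from 96.0 ± 27.9 to 0.52 ± 0.18 CPM in portal culture (log2 -7.52 ± 0.45, adjusted p = 9.44e-12) and from 63.2 ± 31.9 to 0.80 ± 0.48 CPM in stellate culture (-6.33 ± 0.44, adjusted p = 1.12e-10). Phex, an endopeptidase of bone cells, fell in portal culture from 16.2 ± 7.58 to 0.14 ± 0.09 CPM. Msx1, a homeobox factor, was higher in PMSC than HSC by 4.13 ± 0.32 (adjusted p = 6.86e-10) and fell in portal culture (-2.62 ± 0.29, adjusted p = 7.68e-08). Msx2 had no count in HSC and 10.2 ± 1.62 CPM in HSC-MF-7d. Tnfrsf11b, the decoy receptor osteoprotegerin, rose in portal culture (2.40 ± 0.26, adjusted p = 7.48e-08) and fell in stellate culture (-1.18 ± 0.25, adjusted p = 0.000256). In fresh cells 6 of the 12 were higher in PMSC and 2 lower (33.6% and 40.1% of all tested genes). On library totals these counts were 7 and 5 on day 3 and 4 and 5 on day 7 of portal culture, and 5 and 3 between fresh cells.

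Mkx (chr18:6934966-7004779), a tendon regulator, was scarce in every group and highest in PMSC-MF-7d. The 4 libraries held 15, 5, 11 and 8 counts in PMSC, 47, 21, 22 and 33 in PMSC-MF-3d, and 132, 35, 80 and 84 in PMSC-MF-7d. Fresh HSC held 3 counts in library 1 and none in the other 3, and HSC-MF-7d held 20, 24, 11 and 22. The rise in portal culture to day 7 was 2.08 ± 0.55 (adjusted p = 0.00214). PMSC held 15.1 times the HSC level by summed counts (95% counting interval 4.79 to 76.2), and HSC-MF-7d 23.7 times (7.83 to 118). Both differences passed in edgeR (adjusted p = 0.000331 and 5.01e-05), as they did without HSC library 1, which leaves HSC at no count. For PMSC against HSC, however, Mkx met the filter only through the cultures. With only PMSC and HSC in the fit it was left out and not tested. PMSC-MF-7d lay above HSC-MF-7d by 1.52 ± 0.53 (adjusted p = 0.0225), a call that was lost without PMSC-MF-7d library 1 (1.22, adjusted p = 0.0899), without HSC-MF-7d library 1 (1.53, adjusted p = 0.0511) and without HSC-MF-7d library 3 (1.41, adjusted p = 0.069). In the order of groups, PMSC-MF-3d did not differ past the threshold from HSC-MF-7d (adjusted p = 0.851), nor HSC-MF-7d from PMSC (adjusted p = 0.372).

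Scx (chr15:76457411-76459468) was as scarce, with 4, 12, 5 and 19 counts in PMSC, 57, 15, 27 and 26 on day 3 and 52, 35, 21 and 25 on day 7 of portal culture. HSC held 6, 0, 0 and 12 counts and HSC-MF-7d 1, 2, 1 and 0. No group differed from its neighbour in the order of groups past the threshold. Portal and stellate cultures did: by summed counts PMSC-MF-7d held 22.3 times the level of HSC-MF-7d (95% counting interval 8.51 to 83.1; log2 4.34 ± 0.98 in edgeR, adjusted p = 0.00109), and PMSC-MF-3d 21.1 times (8.06 to 78.8). The culture changes of Scx differed by 3.09 ± 1.31 (adjusted p = 0.0485), a call that was lost when any of 12 of the 16 libraries was left out, with a value of 1.91 (adjusted p = 0.243) without HSC library 4.

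Of 15 other tendon genes listed, 13 were tested. In PMSC against HSC 9 were higher and none lower, at a median log2 difference of 2.76 (1.98 with floors). Over all tested genes, 33.6% were higher and 40.1% lower. Fmod, the tendon proteoglycan fibromodulin, stood at 2147 ± 550 CPM in PMSC and 0.92 ± 0.79 in HSC (11.14 ± 0.70, adjusted p = 3.2e-11), and Thbs4, a thrombospondin of tendon, at 145 ± 76.2 and 0.09 ± 0.14 CPM. In portal culture to day 7, 8 fell and 2 rose (4 on library totals), at a median of -3.75, where 39% of all tested genes fell and 38.1% rose. Dcn, the proteoglycan decorin, fell from 17739 ± 665 to 75.1 ± 42.1 CPM (-7.88 ± 0.31, adjusted p = 1.84e-14). In stellate culture 5 rose and 5 fell (36% and 38.5% of all tested genes). Tnc, the matrix protein tenascin C, rose from 51.2 ± 18.8 to 8479 ± 987 CPM there (7.37 ± 0.30, adjusted p = 6.27e-14), against 333 ± 79.1 CPM in PMSC-MF-7d. PMSC-MF-7d exceeded HSC-MF-7d for 7 of the 13 and lay below it for 2 (23.9% and 23.1% of all tested genes). With only the compared groups fitted, it exceeded it for 4, and 3 genes rose and 5 fell in stellate culture.

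**Figure D3:**
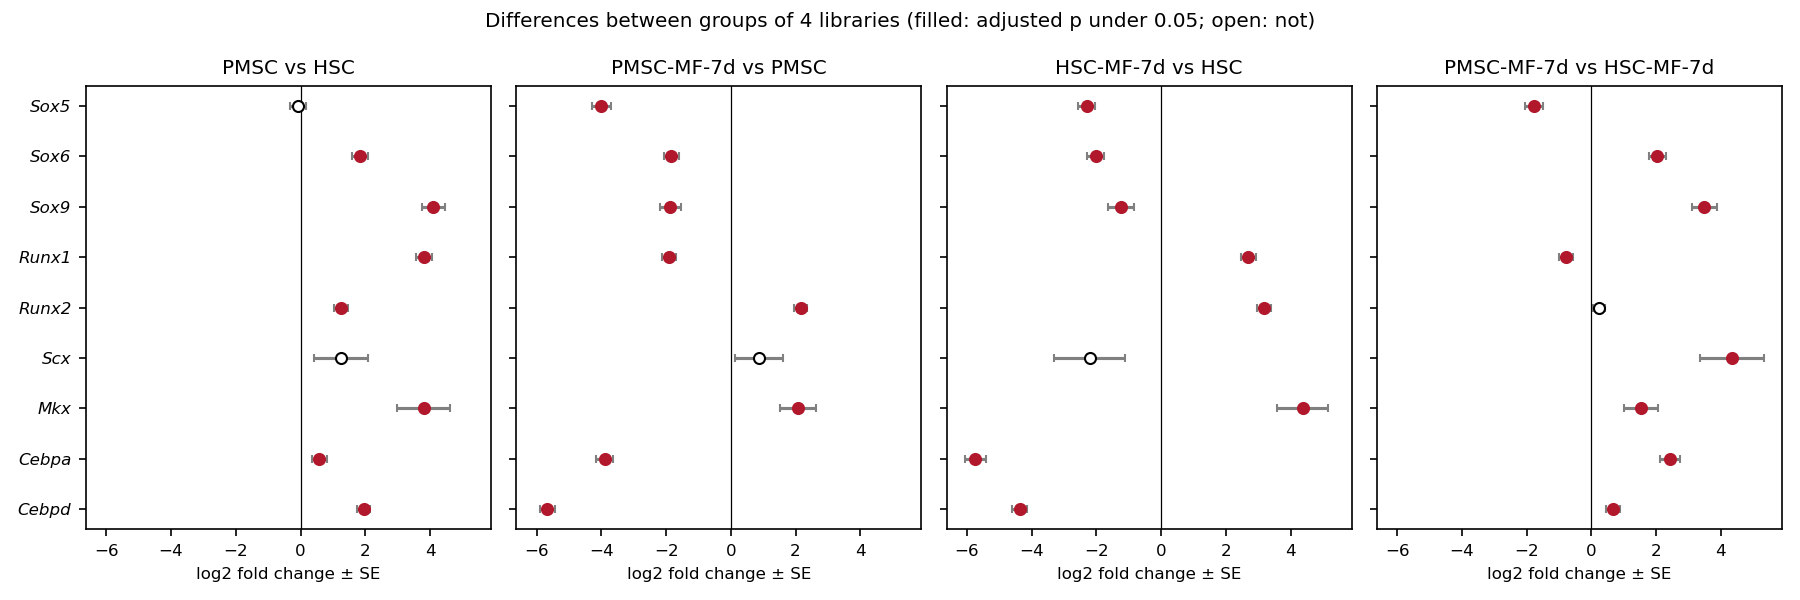
Log2 fold change ± SE of the 9 tested genes in 4 comparisons of 4 libraries against 4 (filled, adjusted p under 0.05; open, not past the threshold). Cebpa and Cebpd had log2 fold changes of -5.74 to -3.90 in both cultures, Runx2 rose in both, and Runx1 fell in the portal and rose in the stellate culture.

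Cebpd (chr16:15887286-15889545) was by far the most abundant of the 10 genes in fresh cells. Its level was 891, 915, 950 and 966 TPM in PMSC and 269, 269, 420 and 291 TPM in HSC, where the next of the 10, Cebpa, had 56.8 to 87.6 and 43.6 to 93.8 TPM. In CPM it stood at 1146, 1137, 1210 and 1129 in PMSC and 264, 268, 389 and 266 in HSC, a log2 difference of 1.96 ± 0.20 (adjusted p = 4.03e-08). It then dropped to 17.4, 16.6, 14.9 and 18.8 CPM on day 3 of portal culture and 37.5, 16.4, 17.3 and 19.7 CPM on day 7. HSC-MF-7d held 11.5, 16.4, 14.1 and 15.1 CPM, with 2 libraries below all 8 of the portal cultures and 2 among them. The log2 fold change was -5.67 ± 0.24 in PMSC-MF-7d (adjusted p = 5.35e-14) and -4.38 ± 0.23 in HSC-MF-7d (adjusted p = 1.69e-12), and the changes differed by -1.29 ± 0.28 (adjusted p = 0.00061). PMSC-MF-7d was above HSC-MF-7d by 0.67 ± 0.21 (adjusted p = 0.0114), a call lost without PMSC-MF-7d library 1 (0.32, adjusted p = 0.0697). The 3 cultures did not differ between neighbours in the order of groups.

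Cebpa (chr7:35119293-35121928) fell in both cultures. PMSC held 134, 106, 85.5 and 98.6 CPM, and HSC 109, 77.5, 47.8 and 49.7 CPM. Portal culture left 12.7, 13.2, 13.2 and 14.6 CPM on day 3 and 7.86, 3.83, 7.55 and 9.05 CPM on day 7, and stellate culture left 1.58, 1.01, 1.5 and 1.22 CPM. Fresh and cultured libraries did not overlap in either lineage. The log2 fold change was -3.90 ± 0.27 in PMSC-MF-7d (adjusted p = 6.49e-11) and -5.74 ± 0.32 in HSC-MF-7d (adjusted p = 3.83e-12), and these changes differed by 1.84 ± 0.39 (adjusted p = 0.000479). Cebpa therefore ended higher in PMSC-MF-7d than in HSC-MF-7d by 2.42 ± 0.31 (adjusted p = 3.14e-06), and all 5 groups differed from their neighbours in the order. Between fresh cells the libraries overlapped and the difference was small (0.58 ± 0.23, adjusted p = 0.0308). It did not pass with library totals in place of scaling (0.24, adjusted p = 0.355), nor without PMSC library 1 (0.45, adjusted p = 0.108), HSC library 3 (0.42, adjusted p = 0.117) or HSC library 4 (0.44, adjusted p = 0.119). HSC libraries 1 and 2, the higher ones for Cebpa, were also those with hepatocyte sums of 18819 and 22660 CPM and with Alb at 10514 and 9441 CPM, against 2534 and 3362 in libraries 3 and 4. With HSC libraries 3 and 4 alone, the difference between PMSC and HSC was 1.11 (adjusted p = 0.000248) and the change in stellate culture -5.18 (adjusted p = 4.15e-12). This choice was made after seeing the data. It leaves out the HSC libraries highest for Cebpa, so the larger difference between fresh cells follows from the choice itself. The part of hepatocyte RNA was not tested. The TPM ratio of Cebpd to Cebpa was 10.2 to 16.7 in PMSC and 1.34 to 1.63 on day 3 and 2.58 to 5.65 on day 7 of portal culture, while HSC libraries had 2.87 to 9.63 and the stellate culture 8.63 to 19.1.

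Fat regulators and products mostly fell alongside them. Of 20 listed, 17 were tested. From PMSC to PMSC-MF-7d 13 fell and 1 rose, at a median log2 change of -2.03 (39% and 38.1% of all tested genes). In stellate culture 11 fell and 4 rose (2 rose with only the compared groups fitted), at a median of -2.07. Over all tested genes, 38.5% fell and 36% rose there. Klf4, a factor that acts before the C/EBP genes, fell in portal culture from 2132 ± 469 to 129 ± 14.5 CPM (-4.05 ± 0.16, adjusted p = 2.95e-14). Zfp423, a determinant of fat precursors, fell from 39.2 ± 4.08 to 0.84 ± 0.27 CPM (-5.53 ± 0.33, adjusted p = 8.6e-12). Klf15 fell in both cultures (-4.75 ± 0.31 and -5.61 ± 0.33). Among fresh cells 9 of the 17 were higher in PMSC and 5 lower (33.6% and 40.1% of all tested genes). The early fat-lineage factor Ebf1 stood at 94.1 ± 35.5 CPM in PMSC and 0.27 ± 0.18 in HSC (8.41 ± 0.48, adjusted p = 8.89e-12), and stayed higher in PMSC-MF-7d than in HSC-MF-7d (3.94 ± 0.36, adjusted p = 3.13e-08). Cd36 and Fabp4, a fatty acid transporter and a fatty acid binding protein that endothelial cells and macrophages also carry, were higher in HSC, at 406 ± 52.6 and 66.7 ± 17.8 CPM.

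Of 10 other RUNX and C/EBP genes and partners listed, 8 were tested. Cebpb and Cebpg are also in the fat list and Cbfb is in the bone list, so these counts share genes. From fresh to cultured cells 7 fell in PMSC-MF-7d and 5 in HSC-MF-7d, and none rose. Over all tested genes, 39% and 38.5% fell and 38.1% and 36% rose. On library totals 3 fell and 1 rose in PMSC-MF-7d, and 5 fell and 1 rose in HSC-MF-7d. With only the compared groups fitted, 6 fell and none rose in PMSC-MF-7d, and 5 fell and 1 rose in HSC-MF-7d. Cebpb, which precedes Cebpa in fat cell formation, fell in portal culture (-3.98 ± 0.14, adjusted p = 4.21e-15) and in stellate culture (-2.07 ± 0.13, adjusted p = 2.22e-11). Runx1t1, a corepressor, fell in both (-1.33 ± 0.16 and -1.16 ± 0.17). Cbfb, the shared partner of the RUNX proteins, stood at 75.4 ± 9.39 CPM in PMSC and 62.4 ± 4.86 in PMSC-MF-7d, and at 72.9 ± 6.99 in HSC and 71.4 ± 2.78 in HSC-MF-7d.

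**Figure D4:**
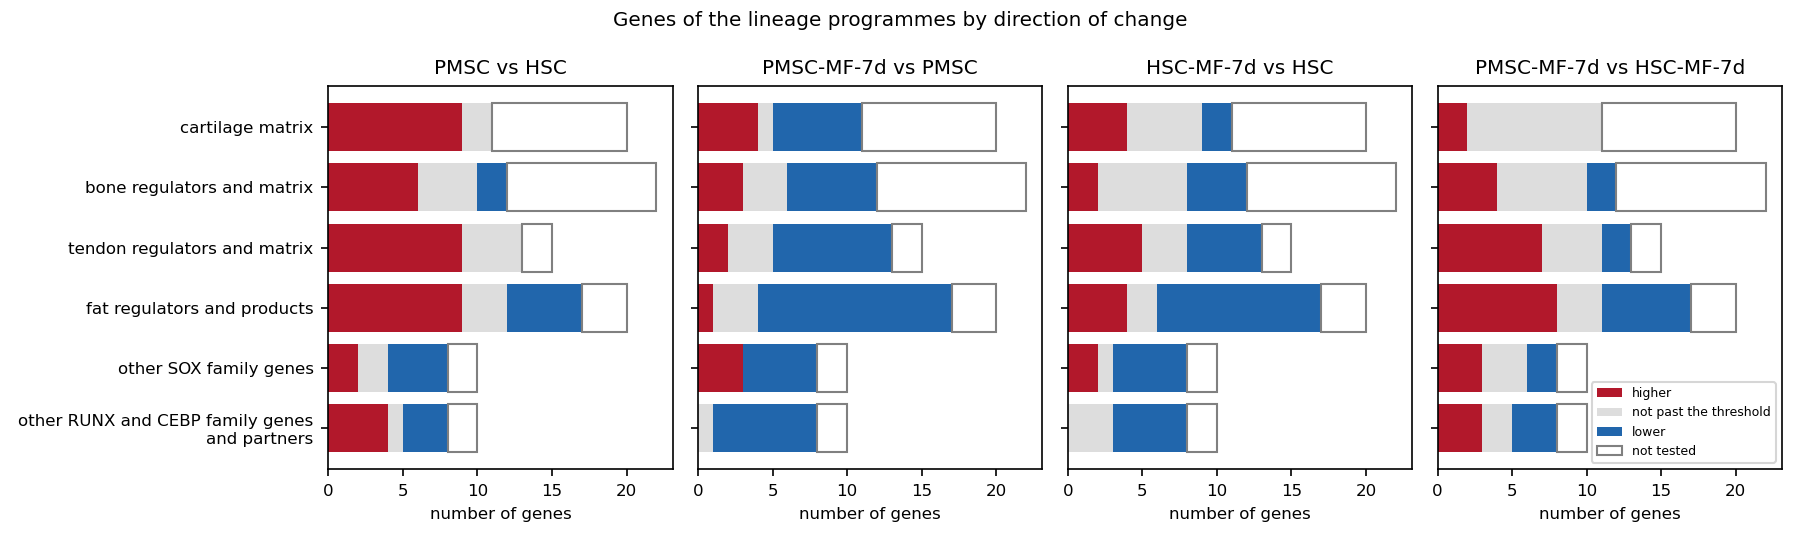
Number of genes in 6 lists that were higher, lower, not past the threshold or not tested in 4 comparisons (bars start at 0). The lists were chosen with earlier results of these data known. In PMSC against HSC 9 of 11 cartilage and 9 of 13 tendon genes tested were higher, where 33.6% of all tested genes were. From PMSC to PMSC-MF-7d 13 of 17 fat genes were lower, where 39% of all tested genes were.

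Among all genes of at least 5 CPM in a group, some had patterns over the 20 libraries very like those of single members. These correlations share libraries and groups and are descriptions. Cebpd was closest to Tpst1 (Pearson r = 0.994), Nr4a1 (0.991) and Inmt (0.99), and Runx2 to Dzip1l (0.986). Sox5 was closest to Atrnl1 (0.979) and Atf3 (0.978), Runx1 to Fjx1 (0.974), Cebpa to the lipoprotein lipase gene Lpl (0.974) and Sox9 to Ackr3 (0.967). Sox6 was closest to Ddr2 (0.963), Mkx to the collagen gene Col8a1 (0.952) and Scx, the tested member with the fewest counts, to Ugt1a7c (0.852). Among the members themselves, Cebpa and Cebpd correlated at 0.878 and Sox6 and Sox9 at 0.788, while Sox5 and Runx2 ran opposite to each other (-0.895).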

How the data were processed

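Per the labels' protocols, RNA came from an RNeasy Micro kit, and KAPA's stranded mRNA-Seq chemistry gave the libraries. Tools named in the submitters' processing notes are FastQC, Trimmomatic, STAR 2.5.3a and RSEM 1.2.28, with the mm10 build and no stated settings. The deposited expected counts per gene are RSEM's estimates, not normalised, per the file headers. Per the file headers, the deposited TPM values allow for transcript length and share a total in all libraries. FPKM, also deposited, was left aside. Transcript lengths are those in the deposited tables.

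Expected counts were rounded and fitted in edgeR 4.0.16 (R 4.3.3) with TMM scaling, filterByExpr (14751 genes kept) and a robust quasi-likelihood model of 5 group means over 20 libraries. A standard error is the log2 fold change over the square root of F. P-values were adjusted over all genes tested. The test was checked on simulated data with known changes. The changed genes there were drawn from those above a minimum mean count, so the check does not cover calls on fewer counts. The genes named are the 10 members, up to 4 called genes per list and comparison with the largest change (10 CPM or more in whichever group was higher), the most alike genes and cell type markers. The list genes printed are a choice among these, made with their values known. The 10 members and the lists were chosen with earlier results of these data known. Promoter letters are RefSeq's; Sox9, Scx and Cebpd had no entry. Alternatives were other scalings, filters, tools (DESeq2 1.42.0, limma 3.58.1) and left-out libraries. The values of 1 list gene are not reported here.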

Additional observations from a re-analysis of the deposited data

Results flagged for a closer look

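In 71 groups of 4 values, 6 values stood apart from the other 3 by a gap above the 95% critical share of the range for 4 values, which chance gives for about 1 group in 20. Sox5 was 4.95 CPM in PMSC-MF-3d library 2, where the nearest other was 2.11. Cebpd was 37.5 CPM in PMSC-MF-7d library 1, with 19.7 next, and 389 CPM in HSC library 3, with 268 next. Mkx was 0.181 CPM in HSC library 1 and 0 in the others. The weighted transcript length of Runx1 was 7058 bases in PMSC library 3, with 7089 next, and that of Cebpa was 2639 bases in HSC library 1, with 2636 in the others.

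The culture change differed between portal and stellate cells by the test of the difference for 6 of the 9 tested genes. The change in PMSC less that in HSC was -4.61 for Runx1, -1.71 for Sox5, -1.29 for Cebpd and -1.02 for Runx2 on the log2 scale. It was 1.84 for Cebpa and 3.09 for Scx. The Scx call (adjusted p = 0.0485) was lost with another scaling, RLE (adjusted p = 0.0544), and with no filter (adjusted p = 0.0546). It was also lost with only the compared groups fitted (adjusted p = 0.0623) and in limma on log2(TPM + 0.1) (adjusted p = 0.0865). The time of the stellate culture, 7 days by title and 3 days by the series text, is part of each of these differences.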

How the results depend on the processing

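Over 72 combinations of member and comparison, 1248 alternative values were computed: 1158 kept direction and side of the threshold, 53 lost the call, 19 gained it and 18 changed sign. Counts of members and of genes called stayed within 1.5 times the reported ones in every alternative run. All 18 sign changes fell on differences that were not called. Sox5 in PMSC against HSC was 0.017 with only the compared groups fitted and ran from -0.168 to 0.023 without single libraries. Runx1 in PMSC-MF-3d against HSC-MF-7d was -0.005 in limma at both pseudocounts, 1 and 0.1. Mkx in that comparison was -0.005 and -0.031 in limma and ran from -0.142 to 0.292 without single libraries. In the difference of culture changes Mkx was 0.399 in limma, and Sox6 ran from -0.007 to 0.346 without single libraries. From day 3 to day 7 Sox5 ran from -0.078 to 0.561 and Scx from -0.2 to 0.551. The cause was not tested.

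Without scaling, on library totals, the median over all genes moved from -0.095 to -0.436 in PMSC against HSC, from -0.069 to 0.414 in PMSC-MF-3d against PMSC, from -0.002 to 0.431 for portal day 7 against fresh, and from 0.103 to 0.442 in the difference. The share of higher among called genes moved from 45.6% to 33.3%, 47.5% to 61.7%, 49.4% to 63.5% and 51.8% to 66.0%. The Cebpa call between fresh cells was lost on library totals and in limma (0.257), and its values without single libraries ran from 0.423 to 0.856. The rise of Mkx from day 3 to day 7 (1.39, adjusted p = 0.0422) lost its call with no filter (1.38, adjusted p = 0.0544) and without any of PMSC-MF-3d replicates 2, 3 and 4 and PMSC-MF-7d replicates 1, 3 and 4 (1.08 to 1.42).

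Same-numbered libraries correlated in their deviations from the group means at 0.145 at most. Between PMSC-MF-3d and PMSC-MF-7d the same number was the best match for replicates 1, 2 and 4 (0.122, 0.1 and 0.089). Correlations this small cannot show whether same-numbered libraries shared an animal or preparation. With replicate number as a block, 7, 7, 4, 8, 8, 8, 6 and 6 members were called in the 8 comparisons, the same numbers as without it. Calls changed for a pair of genes in the difference of culture changes: Scx missed (2.891, adjusted p = 0.0772) and Mkx passed (-2.512, adjusted p = 0.0277). Depth limits Acan, Scx and Mkx, which had under 140 counts in every library.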
